A study of Mus musculus with 6 samples.

Results

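The genes described are neighbours of Ttpa on mouse chromosome 4, examined in sensory neurons of mice with and without a working Ttpa. A list of 60 named genes within about 20 Mb of Ttpa was the starting point. Of these, 57 were both a row of the deposited table and placed in the first 40 Mb of chromosome 4, and these 57 are called the flanking genes. They are 57 of the 27998 rows of the table and of the 172 rows placed in that window. Uqcrb and Ptdss1 were left out because the annotation places them on chromosome 13, and the listed name Tp53inp1 is not a row of the table. The rule was position, but the 57 are not all rows of the window, and the list was made with earlier results of these data known. Car8 and Necab1, window genes that differed within neuron classes (below), are not on it. The list can therefore not be taken as independent of the tests. Ttpa lies at 20007938 to 20030785 on the forward strand of chromosome 4 (mm10). Of the flanking genes, 33 start before it and 24 after it, from Lyn, 16.3 Mb before, to Zfp292, 14.8 Mb after.

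The product of Ttpa is the alpha-tocopherol transfer protein, with which the liver keeps vitamin E in the circulation, and mice and people without it become vitamin E deficient and develop a sensory ataxia. A gene targeted in embryonic stem cells of one strain and bred into another keeps a stretch of the donor chromosome around it, and genes in that stretch may carry donor alleles. The question for the flanking genes is whether any of them differed with genotype on both diets. The strains are not given in the sources used here.

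Dorsal root ganglia, which hold the cell bodies of sensory neurons of the body, were profiled by droplet single-cell RNA sequencing, in which each unique molecular identifier (UMI) marks 1 captured transcript. There were 6 mice, 1 library each. Mice 654 (female) and 657 (male) were Ttpa-/- and ate a diet deficient in vitamin E, and mice 670 (male) and 671 (female) were Ttpa-/- and ate a diet supplemented with it, all 6 months old. Mice 698 (female) and 699 (male) were Ttpa+/+, here called wild type, on a basal diet and 5 months old. Each contrast with wild type therefore changes genotype, diet and age together, and these cannot be told apart. The contrast between the diets is within Ttpa-/- mice, which carry the same targeted locus.

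The table held 21685 cells with 12538785 to 19383933 UMIs per mouse, and 261 cell barcodes occurred in more than 1 library. After filtering, 19965 neurons remained, with 2716 to 3767 neurons and 11692843 to 18351782 neuronal UMIs per mouse. The median UMIs per cell were 2851, 4944, 2500, 3468, 4025 and 4308 in mice 654, 657, 670, 671, 698 and 699, an order used for all values below. Neurons were grouped by markers into 6 classes with at least 20 cells in each mouse. These were NF-like (large neurofilament-rich touch and position neurons), PEP-like (peptidergic pain neurons), NP1-like, NP2-like and NP3-like (non-peptidergic pain and itch neurons) and TH-like (C-fibre touch neurons). A TRPM8-like cluster (cold-sensing neurons) of 310 cells, with 19 in mouse 699, and an unnamed neuron cluster of 1023 cells led by Mrgpra3 were counted among all neurons and not tested as classes. Mrgpra3 is itself on the NP2-like marker list, yet no marker of that list was among the 10 leading genes of the NP2-like cluster. The NP2-like results below are those of this cluster, without the unnamed cluster led by Mrgpra3. They need not hold for Mrgpra3 itch neurons. Among the TH-like clusters, 1 had the glial genes Fabp7 and Apoe among its leading genes. Levels are given in CPM, the counts per 1000000 UMIs of the UMIs summed per mouse.

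Ttpa itself gave 4, 5, 1 and 2 UMIs in neurons of the Ttpa-/- mice and 0 in both wild type mice, where a count of 0 allows up to 0.183 and 0.163 CPM. The gene was too sparse in these cells to check the genotype labels, and the reads of this assay come from the 3′ end of transcripts, so a deletion elsewhere in the gene need not remove them.

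No flanking gene differed between Ttpa-/- and wild type neurons past an adjusted p of 0.05. Nor did any of the 90 tested window genes in all neurons. Within classes Car8 and Necab1, window genes outside the list, did pass (below). The edgeR quasi-likelihood test could be run on 55 of the 57, since Gdf6 and Rad54b were too sparse. Called genes were 0% of the 13298 genes tested in each of the 4 contrasts: both Ttpa-/- diets against wild type, deficient against wild type, supplemented against wild type, and deficient against supplemented. At an unadjusted p under 0.05, 4 flanking genes (7.27%) passed for both diets against wild type, beside 4.32% of all genes. The numbers were 4 (3.67% of all genes) for deficient against wild type, 3 (3.7%) for supplemented against wild type and 1 (2.38%) for deficient against supplemented. DESeq2 and limma-voom also called 0 flanking genes for both diets against wild type, with 4 and 5 at an unadjusted p under 0.05.

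The differences were small. For both diets against wild type the flanking genes ranged from -0.85 (Calb1) to 0.53 (Mms22l) in log2 fold change, with a median size of 0.10 that equals the 0.10 of all genes. The 95% interval of 48 of the 55 stayed within a 2-fold difference either way, and that of 40 stayed within 1.5-fold. More of them lay below wild type than above, since 14 of 55 (25.5%) had a positive value against 49.3% of all genes, and their median log2 fold change was -0.07 beside -0.002 for all genes. This lean was lost without wild type mouse 698 (median 0.02) and was larger without mouse 699 (-0.16). In every other alternative the median was from -0.117 to -0.064. Within NF-like, NP1-like, NP2-like, NP3-like, PEP-like and TH-like neurons of the same mice, 29.2%, 38.3%, 33.3%, 34.3%, 38% and 36.4% were positive. The shares of all genes there were 49.3%, 48.8%, 49.2%, 49.2%, 48% and 47.3%. The cause of the lean was not tested. Between the diets 28 of 55 were higher in the deficient mice, with a median of 0.02.

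Flanking genes with small p-values were spread over distances from Ttpa. For both diets against wild type, 2 of 19 within 5 Mb had an unadjusted p under 0.05, 1 of 12 at 5 to 10 Mb, 1 of 20 at 10 to 15 Mb and 0 of 4 at 15 to 20 Mb. On the rest of chromosome 4 the share was 4.38% of 730 genes, and on other chromosomes 4.3% of 12415. The median log2 fold change of the flanking genes was -0.058, -0.108, -0.097 and -0.083 in the same order of distance. It was 0.002 for the rest of chromosome 4 and -0.002 for other chromosomes.

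**Figure D1:**
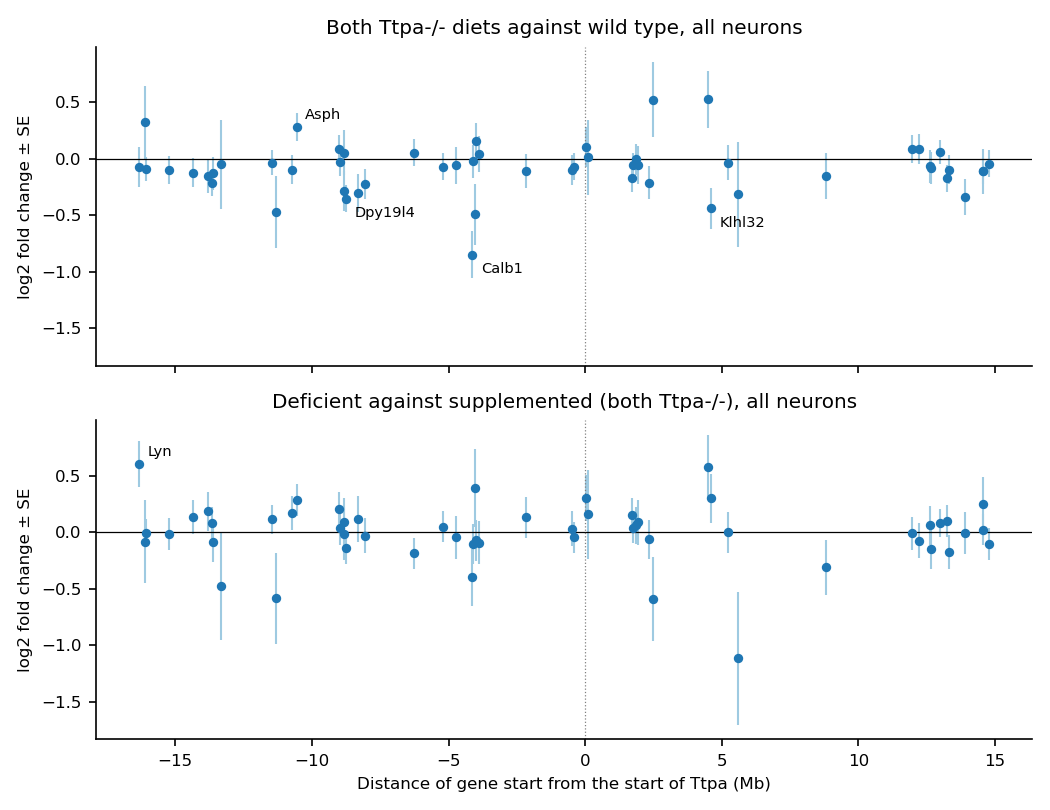
Log2 fold change with its standard error (vertical axis) of the 55 tested flanking genes in all neurons against the distance of the gene's start from the start of Ttpa in Mb (horizontal axis), for both Ttpa-/- diets against wild type (top) and deficient against supplemented (bottom); names mark an unadjusted p under 0.05. Most points lie near 0 at every distance, and the named genes are 4.13 to 16.3 Mb from Ttpa.

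The genes closest to Ttpa showed no difference in all neurons beyond the spread between mice. Ggh, which starts 0.034 Mb after Ttpa and encodes the gamma-glutamyl hydrolase that trims folate polyglutamates, measured 23.1, 26.3, 22.2 and 18.9 CPM in the Ttpa-/- mice and 25.6 and 16.0 in wild type. The wild type values enclosed all but 1 of the Ttpa-/- values, and the log2 fold change was 0.10 ± 0.18 (SE), with a 95% interval of -0.29 to 0.49. Wwp1, a HECT-type ubiquitin ligase 0.4 Mb before Ttpa, measured 44.6, 48.9, 47.1 and 51.5 CPM against 46.0 and 53.8. The groups overlapped, with a log2 fold change of -0.07 ± 0.12 and an interval of -0.33 to 0.19. Cpne3, a calcium-dependent phospholipid-binding copine 0.489 Mb before Ttpa, measured 547, 466, 499 and 511 CPM against 606 and 465. Its wild type mice stood at both ends of the range (-0.10 ± 0.13, interval -0.39 to 0.19). Nkain3, a partner of the sodium pump 0.111 Mb after Ttpa, gave only 84 UMIs in the Ttpa-/- mice and 49 in wild type, and its interval of -0.71 to 0.74 is wide.

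Calb1 had the smallest p of the flanking genes. It encodes calbindin-D28k, a cytosolic calcium buffer, and lies at 15881264 to 15908064, 4.13 Mb before Ttpa. In all neurons it measured 12.5, 20.8, 19.8 and 25.4 CPM in the Ttpa-/- mice and 27.8 and 41.9 in wild type. Every Ttpa-/- mouse was below both wild type mice, and mice within each group also differed. The log2 fold change was -0.85 ± 0.21 (unadjusted p = 0.0016, adjusted p = 0.832). It was -1.10 without mouse 698 and -0.53 without mouse 699. Deficient against wild type gave -1.05 ± 0.25 (unadjusted p = 0.0013). Supplemented against the same wild type mice gave -0.647 ± 0.245 (unadjusted p = 0.0223).

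Most neuronal Calb1 UMIs came from NF-like neurons, at 64.4%, 87.1%, 84.0%, 90.2%, 78.1% and 99.1% in the order of mice given. The TRPM8-like cluster gave 48, 38, 31, 24, 87 and 3 of the Calb1 UMIs, or 524, 320, 264 and 156 CPM in the Ttpa-/- mice and 670 and 53.3 in wild type. Without this cluster all neurons measured 8.91, 18.8, 17.3 and 24.2 CPM against 22.7 and 41.9, so that mouse 671 lay above wild type mouse 698 (-0.93, adjusted p = 0.947). The NF-like share of neurons was 10.6%, 11.5%, 14.3%, 14.8%, 11.2% and 17.5%. The 16 NF-like markers summed to 2960, 3677, 3510 and 3863 CPM of all neuronal UMIs in the Ttpa-/- mice and to 3281 and 4569 in wild type, with 2 of 16 higher in Ttpa-/- and none of them at 0. Within NF-like neurons Calb1 measured 71.3, 116, 107 and 114 CPM against 150 and 159. The groups did not overlap there, with a log2 fold change of -0.61 ± 0.15 (unadjusted p = 0.000341, adjusted p = 0.397). Within these neurons the same markers summed to 10594, 11149, 11167 and 10982 CPM against 10402 and 10904. Most of its NF-like UMIs fell in 1 cluster, at 375, 533, 408 and 403 CPM against 720 and 603. In NF-like neurons the adjusted p passed without mouse 657 (0.00129) and without mouse 671 (0.0174). It was 1.0 without mouse 654 (log2 fold change -0.46) and 1.0 with sex as a term.

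Dpy19l4, of the DPY-19 family of membrane proteins related to C-mannosyltransferases, lies at 11261315 to 11322137, 8.75 Mb before Ttpa. It measured 23.2, 25.9, 27.9 and 27.5 CPM in Ttpa-/- neurons and 34.6 and 31.4 in wild type. All Ttpa-/- mice were below both wild type mice (-0.35 ± 0.12, unadjusted p = 0.0116, adjusted p = 1.0). Deficient against wild type gave -0.42 ± 0.14 (unadjusted p = 0.0101, adjusted p = 0.996). Supplemented against wild type did not reach an unadjusted p under 0.05. In NF-like neurons the values were 25.8, 30.3, 35.4 and 30.4 CPM against 52.6 and 36.6, again without overlap (-0.54 ± 0.17, adjusted p = 0.999). The log2 fold change there was -0.31 without mouse 698 and -0.80 without mouse 699. It was lower in Ttpa-/- in all 6 classes, with log2 fold changes from -0.74 in NP2-like to -0.11 in TH-like neurons.

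Klhl32, of the Kelch-like family of ubiquitin ligase adaptors, lies at 24612554 to 24851124, 4.61 Mb after Ttpa. It measured 8.69, 5.83, 5.64 and 6.23 CPM in Ttpa-/- neurons and 9.32 and 8.23 in wild type. Mouse 654 lay between the wild type mice and the other Ttpa-/- mice were lower (-0.44 ± 0.18, unadjusted p = 0.0323, adjusted p = 1.0). Supplemented against wild type gave -0.585 ± 0.214 (unadjusted p = 0.0187). Deficient against wild type gave -0.29 and did not reach an unadjusted p under 0.05.

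Asph was the flanking gene with a positive difference at an unadjusted p under 0.05. It encodes aspartate beta-hydroxylase and, from the same locus, the sarcoplasmic reticulum proteins junctin and junctate, and lies at 9448069 to 9669344, 10.6 Mb before Ttpa. Its annotation overlaps that of Clvs1. In all neurons it measured 128 CPM in both deficient mice, 97.4 and 117 in the supplemented mice and 105 and 86.1 in wild type. The deficient mice were above both wild type mice, and supplemented mouse 670 lay between these (0.28 ± 0.12, unadjusted p = 0.0394, adjusted p = 1.0). The value was 0.44 without mouse 698 and 0.14 without mouse 699. Deficient against wild type gave 0.42 ± 0.14 (unadjusted p = 0.0105, adjusted p = 0.996). Supplemented against wild type did not reach an unadjusted p under 0.05 in all neurons.

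**Figure D2:**
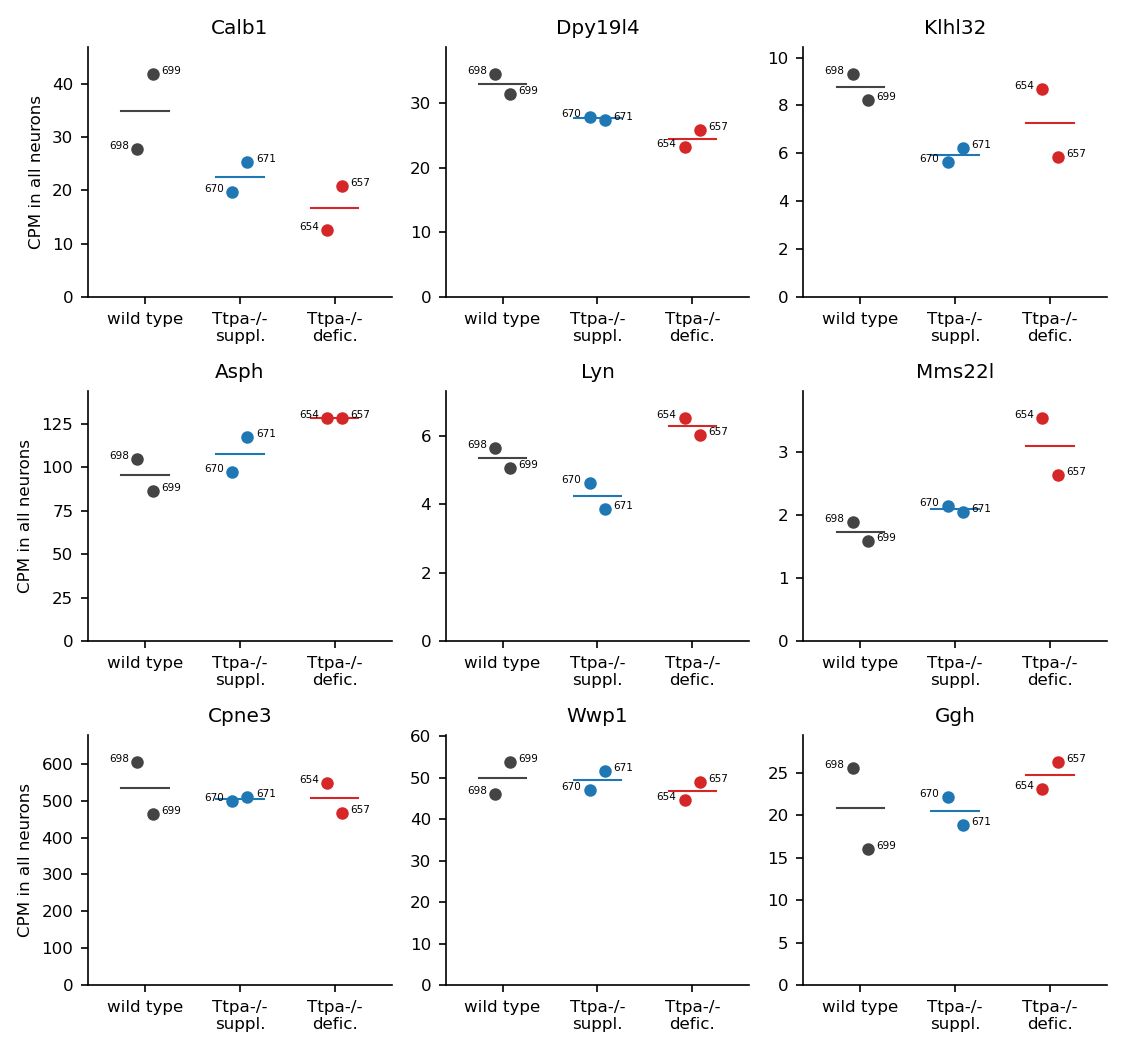
CPM in all neurons (vertical axis, from 0) for 9 flanking genes, 1 point per mouse labelled with its number and a line at each group's mean; groups are wild type, supplemented Ttpa-/- and deficient Ttpa-/-. Calb1 and Dpy19l4 lie lower in all 4 Ttpa-/- mice, whereas the groups overlap for Cpne3, Wwp1 and Ggh, all within 0.489 Mb of Ttpa.

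By role, the 5 tested signalling genes had a median log2 fold change of -0.07 for both diets against wild type. At the ends were Cnr1, the cannabinoid receptor CB1, at -0.34 ± 0.16 (unadjusted p = 0.0547), and Map3k7, the kinase TAK1, at 0.09. Cnr1 measured 32.9, 44.6, 33.5 and 45.9 CPM against 48.4 and 50.1, so that all Ttpa-/- mice were below wild type in all neurons. Within classes Cnr1 gave -0.05 in PEP-like neurons, where its level was highest, -0.31 in NF-like and 0.08 in NP1-like neurons. The part of the class shares in its all-neuron value was not tested. Ripk2, a kinase downstream of the NOD receptors, and Epha7, an ephrin receptor, gave 0.04 and -0.15.

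The 10 genes of transcription and chromatin had a median of -0.05 and ran from Chd7, a chromatin remodeller, at -0.47 to Pou3f2, a POU homeobox factor, at 0.52 ± 0.33. Both were sparse, and neither had an unadjusted p under 0.05 for both diets against wild type. Supplemented against wild type gave 0.82 ± 0.37 for Pou3f2 (unadjusted p = 0.0486, adjusted p = 1.0). The well-measured members were close to wild type: Runx1t1, a transcriptional corepressor, differed by 0.06 ± 0.12, Akirin2, a nuclear factor that helps import proteasomes, by -0.10 ± 0.12, and Zfp292, a zinc finger protein, by -0.04 ± 0.12.

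The 5 tested replication, repair and cyclin genes had a median of -0.17. Nbn, a subunit of the MRN break-sensing complex, was lowest at -0.49 ± 0.27, and Mms22l, a repair factor of stalled replication forks, was highest at 0.53 ± 0.25. Mms22l measured 3.54 and 2.63 CPM in the deficient mice, 2.14 and 2.04 in the supplemented mice and 1.89 and 1.58 in wild type, an order without overlap between the groups. Deficient against wild type gave 0.82 ± 0.28 (unadjusted p = 0.0134, adjusted p = 0.996). Ccne2, which encodes cyclin E2, was below wild type in all 4 Ttpa-/- mice (-0.28 ± 0.18). Its annotation overlaps that of Ints8, an Integrator subunit, which gave 0.06 ± 0.20.

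The 12 genes of membrane traffic and lipids had a median of -0.10, with Plekhf2, an endosomal protein, highest at 0.08. Rab2a, a small GTPase of transport between endoplasmic reticulum and Golgi, measured 343, 336, 338 and 303 CPM against 345 and 322, and its log2 fold change of -0.03 ± 0.11 had an interval of -0.27 to 0.21. The 7 genes of mitochondria and metabolism had a median of -0.03 and ran from Pdp1, the pyruvate dehydrogenase phosphatase, at -0.22 to Ggh. Coq3, a methyltransferase of coenzyme Q synthesis, gave -0.01 ± 0.14. The 6 ubiquitin-pathway genes were all below 0, from Klhl32 to Ufl1, the ligase of the ubiquitin-like UFM1, at -0.03. The remaining 7 ran from Calb1 to Asph, and the 3 genes of RNA processing and ribosome assembly lay between -0.10 and 0.06.

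All 4 Ttpa-/- mice were above both wild type mice for 2 of the 55 flanking genes in all neurons, Plag1 and Mms22l, beside 6.41% of all genes tested. All 4 were below both for 5 of the 55, which were Ccne2, Dpy19l4, Gem, Calb1 and Cnr1, a larger share than the 4.29% of all genes. In neurons 9 of 10 satellite glia markers were higher in Ttpa-/- (summed 890, 794, 1081 and 1352 CPM against 938 and 823), as were 4 of 4 tested erythroid markers (115, 37.5, 217 and 39.4 CPM against 8.65 and 37.9). The NP1-like markers were higher for 8 of 8 tested (903, 637, 843 and 642 CPM against 668 and 465) and the NP3-like markers for 7 of 8 (493, 256, 276 and 306 against 312 and 295). NP1-like neurons were 13.6% to 20.9% of neurons in the Ttpa-/- mice and 11.6% and 8.32% in wild type. No marker of these lists was at 0 in every mouse, and their part and that of the shares in the all-neuron results was not tested.

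Between the diets, Lyn alone had an unadjusted p under 0.05 in all neurons. It encodes a Src-family kinase and lies at 3678115 to 3813122. It measured 6.54 and 6.05 CPM in the deficient mice, 4.62 and 3.88 in the supplemented mice and 5.66 and 5.07 in wild type. The wild type mice lay between the diets, which did not overlap (0.60 ± 0.21, unadjusted p = 0.0135, adjusted p = 1.0). Most Lyn UMIs came from PEP-like neurons, where the values were 20.2 and 17.1 CPM against 13.1 and 12.2, with wild type at 13.2 and 11.5 (0.56 ± 0.23, adjusted p = 1.0). In NP3-like neurons, where its level was highest, supplemented mouse 671 stood apart at 5.95 CPM and the other 5 mice lay between 24.4 and 33.5.

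Within the classes, again no flanking gene passed the adjusted threshold in any contrast by edgeR, and 48, 47, 27, 35, 50 and 44 flanking genes could be tested in NF-like, NP1-like, NP2-like, NP3-like, PEP-like and TH-like neurons. For both diets against wild type the called genes were 0.00974%, 0.0703%, 0.16%, 0.0385%, 0.0715% and 0% of all genes tested in these classes. At an unadjusted p under 0.05 there were 3, 6, 3, 2, 2 and 0 flanking genes, beside 3.37%, 5.62%, 3.59%, 3.22%, 3.32% and 2.79% of all genes. DESeq2 called 1, Cpne3 in NP1-like neurons. Of all window genes edgeR called 2 in NP3-like, 2 in PEP-like and 1 in NP2-like neurons. These were Necab1 and Car8, which are outside the list. Between the diets the called genes were 0%, 0.01%, 0.029%, 0%, 0% and 0% of all genes. At an unadjusted p under 0.05 there were 2, 4, 1, 1, 1 and 0 flanking genes between the diets, beside 3.2%, 5.12%, 3.88%, 3.03%, 2.94% and 2.27% of all genes.

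Each diet was also set singly against wild type, both against the same wild type mice. For deficient mice the called genes were 0.00974%, 0.01%, 0.0145%, 0.0385%, 0.0625% and 0% of all genes in the same order of classes. The flanking genes with an unadjusted p under 0.05 were 2, 3, 2, 3, 3 and 0, beside 2.54%, 3.91%, 3.31%, 2.77%, 2.5% and 1.9% of all genes. For supplemented mice the called genes were 0.0487%, 0.121%, 0.0871%, 0.0128%, 0.0715% and 0% of all genes. The flanking genes with an unadjusted p under 0.05 were 4, 6, 1, 3, 3 and 3, beside 4%, 7.37%, 3.99%, 3.5%, 4.14% and 3.32% of all genes.

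Asph was higher in Ttpa-/- than in wild type in 4 of the 6 classes at an unadjusted p under 0.05. In NP3-like neurons it measured 46.2, 32.0, 34.3 and 41.6 CPM in Ttpa-/- against 17.7 and 15.2 in wild type. The lowest Ttpa-/- mouse was well above the highest wild type mouse (1.21 ± 0.26, unadjusted p = 0.00013, adjusted p = 0.253), and leaving out 1 mouse at a time gave adjusted p-values from 0.016 (without mouse 657) to 0.814 (without mouse 654). With UMIs thinned to the smallest mouse the log2 fold change was 0.95 (adjusted p = 1.0). The values were 1.23 ± 0.29 for deficient and 1.19 ± 0.31 for supplemented mice, against the same wild type mice.

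In NP1-like neurons Asph measured 148, 141, 99.0 and 130 CPM against 96.0 and 83.8, without overlap (0.48 ± 0.13, adjusted p = 0.326). Deficient against supplemented gave 0.324 ± 0.138 there (unadjusted p = 0.0291, adjusted p = 0.936) and 0.425 ± 0.22 in NP2-like neurons (unadjusted p = 0.0625, adjusted p = 0.999). In PEP-like neurons it measured 103, 109, 84.5 and 104 CPM against 75.1 and 66.7, also without overlap (0.46 ± 0.13, adjusted p = 0.815). In NP2-like neurons the values were 200, 239, 122 and 194 CPM against 166 and 111, where the groups overlapped (0.45 ± 0.19, adjusted p = 0.999). The NP2-like value was 0.20 without mouse 671, 0.20 without mouse 699, 0.19 with thinned UMIs and 0.74 without mouse 698. In the unnamed cluster led by Mrgpra3, which was not tested, Asph measured 198, 182, 144 and 191 CPM against 125 and 99.9. In these 3 classes supplemented mouse 670 was the lowest Ttpa-/- mouse. NF-like and TH-like neurons gave -0.003 and -0.13, with overlapping groups. Whether the classes differ in this was not tested. The satellite glia markers tested in NP3-like neurons were higher in Ttpa-/- for 7 of 7, with sums of 863, 688, 1243 and 1327 CPM against 931 and 702. In PEP-like neurons the 4 tested erythroid markers were all called higher in Ttpa-/-, with sums of 111, 94.8, 190 and 122 CPM against 8.97 and 13.5. In NP2-like neurons the 1 tested erythroid marker was called lower, with list sums of 42.7, 0.924, 9.14 and 0 CPM against 7.02 and 496.5. The part of these markers in the Asph values was not tested.

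Cpne3 in NP1-like neurons was the flanking gene with the smallest adjusted p in any class. It lies at 19519254 to 19570108. It measured 484, 434, 464 and 487 CPM in Ttpa-/- and 653 and 600 in wild type. The Ttpa-/- mice lay close together and well below both wild type mice (-0.46 ± 0.10, unadjusted p = 0.000175, adjusted p = 0.124), and DESeq2 gave an adjusted p of 0.0266. NP1-like neurons were 3 clusters, whose mix differed between mice: the second largest held 16.8% to 26.4% of them in the Ttpa-/- mice and 12.7% and 9.33% in wild type. In the largest cluster alone Cpne3 measured 508, 461, 518 and 509 CPM against 694 and 648 (-0.47, adjusted p = 0.232), and the groups did not overlap in any of the 3. The other classes gave log2 fold changes from -0.25 in NP3-like to 0.02 in TH-like neurons.

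Sdcbp, which encodes the PDZ adaptor syntenin-1 and lies at 6365650 to 6408423, was lower in Ttpa-/- in all 6 classes, by 0.15 to 0.38 on the log2 scale. In NP3-like neurons it measured 1314, 1378, 1429 and 1385 CPM against 1858 and 1633, without overlap (-0.38 ± 0.14, unadjusted p = 0.0124, adjusted p = 1.0). Its annotation overlaps that of Nsmaf. Of the 27 flanking genes tested in all 6 classes, 0 were higher in every class and 7 were lower in every class, namely Ccnc, Dpy19l4, Fbxl4, Ndufaf6, Pdp1, Pnrc1 and Sdcbp. Among all 6320 genes tested in every class, 6.84% were higher and 10.3% were lower in each. The 7 of 27 are thus a larger share than that of all genes, with the same wild type mice in every class.

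**Figure D3:**
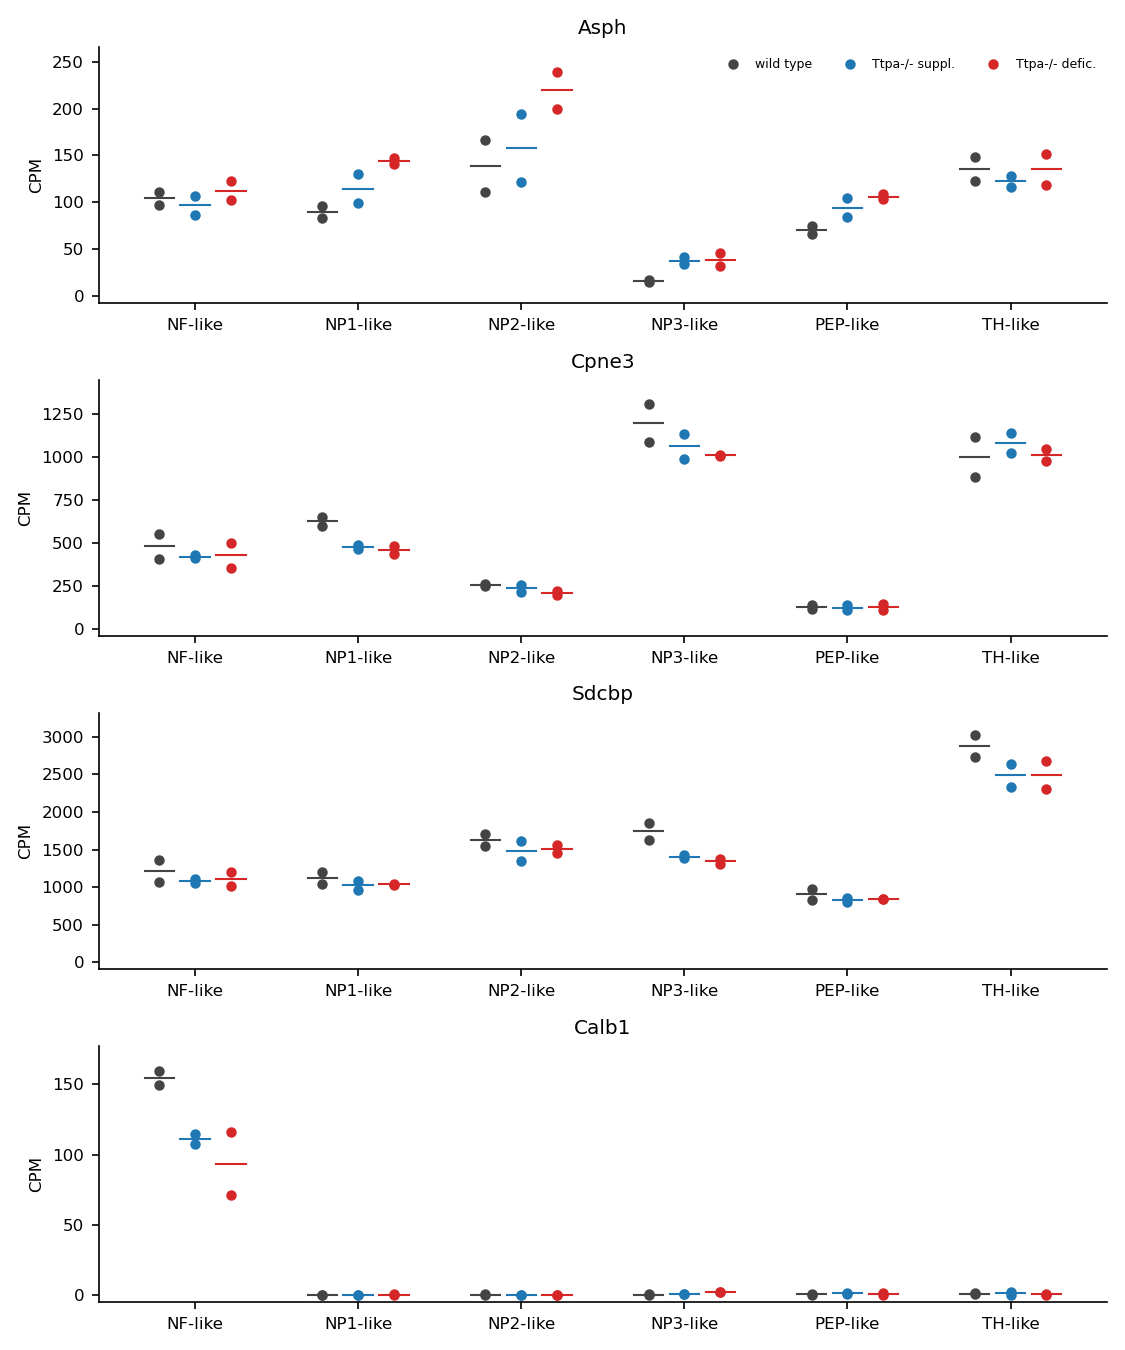
CPM (vertical axis, each panel on its own scale) of Asph, Cpne3, Sdcbp and Calb1 in the 6 neuron classes (horizontal axis), 1 point per mouse and a line at each group's mean, for wild type, supplemented Ttpa-/- and deficient Ttpa-/-. Asph in NP3-like and Cpne3 in NP1-like neurons show no overlap between genotypes, and among these 6 classes Calb1 is near 0 outside NF-like neurons.

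Counts of flanking genes whose genotypes did not overlap are out of 48, 47, 27, 35, 50 and 44 tested, in the order below. Above both wild type mice were 1 in NF-like (7.86% of all genes), 3 in NP1-like (9.25%), 0 in NP2-like (6.26%), 3 in NP3-like (8.15%), 3 in PEP-like (8.05%) and 2 in TH-like neurons (7.01%). Asph was among those of NP1-like, NP3-like and PEP-like neurons, and Wwp1 among those of NF-like and PEP-like neurons. Below both wild type mice were 4 in NF-like (3.24%), 6 in NP1-like (4.74%), 1 in NP2-like (3.85%), 1 in NP3-like (3.53%), 3 in PEP-like (3.09%) and 1 in TH-like neurons (2.88%). Dpy19l4 was among those of NF-like, NP2-like and PEP-like neurons. The 6 of NP1-like neurons were Ubxn2b, a p97 cofactor, Tmem64, a membrane protein of calcium handling, Decr1, a reductase of fatty acid oxidation, Cpne3, Ufl1 and Akirin2. The share of flanking genes below both wild type mice exceeded that of all genes in NF-like, NP1-like and PEP-like neurons. It did not in the other classes. The classes share the same wild type mice, and the cause was not tested.

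Other flanking genes reached an unadjusted p under 0.05 in 1 class each, for both diets against wild type or between the diets. In NP1-like neurons Ccnc, which encodes the Mediator subunit cyclin C, gave -0.30 ± 0.13 (adjusted p = 0.832), and Pnrc1, a nuclear receptor coactivator, gave -0.36 ± 0.15 (adjusted p = 0.826). Tmem64 and Decr1 gave -0.46 ± 0.20 and -0.39 ± 0.18 in the same class (adjusted p = 0.878 for each). Nbn gave -0.96 ± 0.46 in PEP-like and Cnr1 -0.31 ± 0.15 in NF-like neurons (adjusted p = 0.999 for each). In NP2-like neurons Rngtt, the messenger RNA capping enzyme, measured 13.6, 14.8, 12.2 and 25.7 CPM against 22.2 and 36.5. Mouse 671 lay above wild type mouse 698 there (-0.79 ± 0.33, adjusted p = 0.999). Between the diets, Runx1t1 in NP1-like neurons measured 83.7 and 77.9 CPM in the deficient and 101 and 117 in the supplemented mice, with wild type between at 93.3 and 91.5 (-0.44 ± 0.13, unadjusted p = 0.00263, adjusted p = 0.936). Of the genes closest to Ttpa, Ggh gave 0.77 ± 0.29 in NF-like neurons (unadjusted p = 0.0139). Wwp1 gave -0.54 ± 0.26 in NP1-like neurons (unadjusted p = 0.048). Bach2 in NF-like, Osgin2 in NP1-like, Akirin2 in NP2-like and Pdp1 in NP3-like neurons were lower in the deficient mice.

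**Figure D4:**
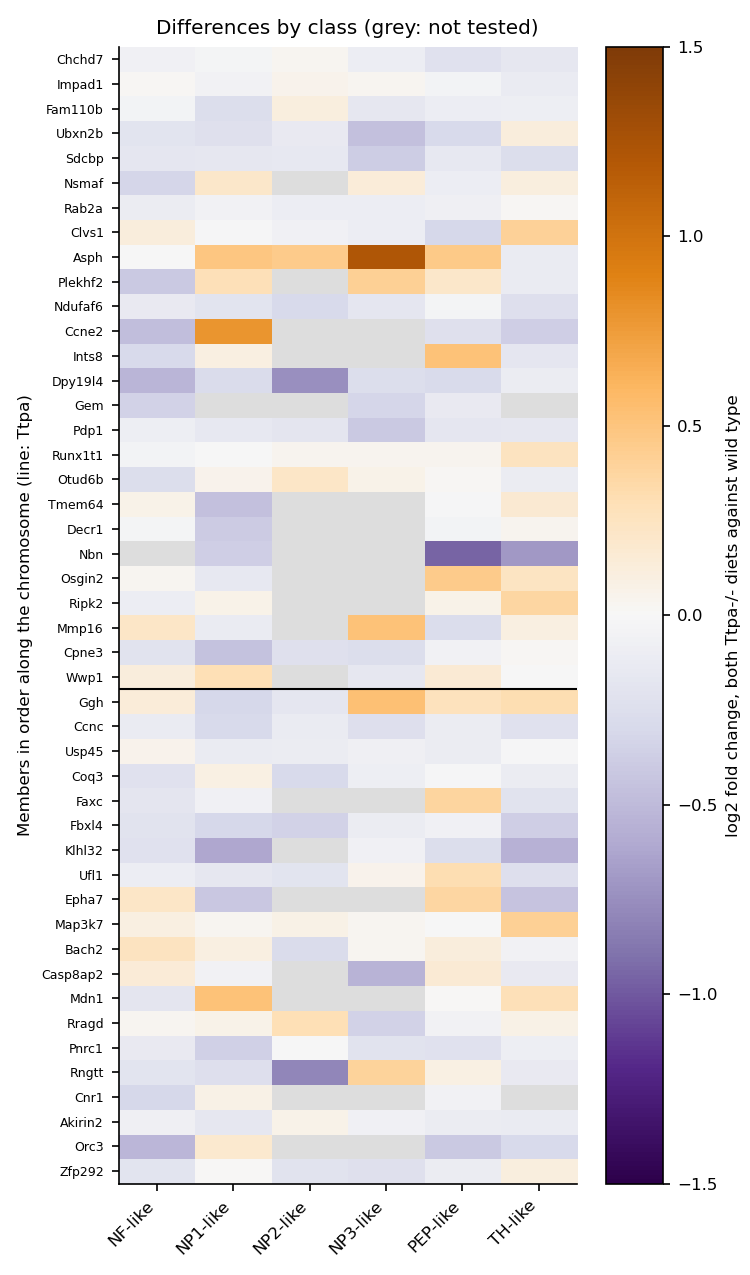
Log2 fold change of both Ttpa-/- diets against wild type (colour, scale from -1.5 to 1.5) for the 46 flanking genes tested in at least 3 classes, in order along the chromosome (rows) by neuron class (columns); grey cells were not tested and the line marks the place of Ttpa. Wwp1 and Ggh, the rows next to the line, have both colours. The rows shown after Ggh from Ccnc to Klhl32 are mostly negative, with Ccnc, Fbxl4 and Klhl32 negative in every class tested. Pou3f2 (0.65 in PEP-like) and Mms22l (0.66 in NP1-like and 0.21 in PEP-like neurons) lie in this stretch. They were tested in fewer than 3 classes and are not shown. Of all genes, 47.3% to 49.3% were positive by class. The darkest positive cell is Asph in NP3-like neurons.

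The level of many flanking genes varied between the 6 tested neuron classes. Levels by class are means over the 6 mice and are given as a description. For 18 flanking genes the highest class was at least 2-fold above the median class, and for 25 it was under 1.5-fold. The 18 include Gdf6 and Rad54b, with 5 and 7 UMIs, and not Fut9, whose median class was at 0. For 9 the lowest mouse in the highest class was above every mouse of every other class. The highest class was NF-like for 15 flanking genes, NP3-like for 14, PEP-like for 14, NP1-like for 5, TH-like for 5 and NP2-like for 4.

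Calb1 was at 119.6 ± 31.6 CPM (SD over 6 mice) in NF-like neurons and at most 1.26 in the other tested classes. Its mean was higher in the small TRPM8-like cluster, at 331.3 ± 230.1 CPM, where mice ranged from 53.3 to 670. Fut9, the fucosyltransferase that makes the Lewis X epitope, gave 61 UMIs in NF-like neurons (3.64 ± 1.30 CPM) and 0 in the other classes, where a count of 0 over all mice allows 0.136 to 0.692 CPM. Wwp1 measured 98.2 ± 5.82 CPM in NF-like neurons, followed by TH-like (75.7 ± 4.63), PEP-like (52.5 ± 6.71) and NP3-like neurons (20.6 ± 5.36). The lowest levels of Wwp1 were in NP1-like (10.7 ± 2.84) and NP2-like neurons (7.65 ± 4.75), which did not differ beyond their spread. Mdn1, a ribosome assembly factor, was highest in NF-like (25.9 ± 2.07) and next in PEP-like neurons (15.1 ± 0.82).

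Cnr1 was high in PEP-like (102.6 ± 13.9 CPM) and NF-like neurons (85.1 ± 14.8), which overlapped, reached 14.5 ± 2.18 in NP1-like neurons and was 2.12 or lower in the rest. Lyn was found mostly in NP3-like (24.4 ± 9.64) and PEP-like neurons (14.5 ± 3.38), and was under 0.60 CPM elsewhere. Nkain3 was highest in NF-like neurons (3.84), Chd7 in PEP-like (3.36) and Pou3f2 in NP3-like neurons (4.98). Gem, a small GTPase that inhibits calcium channels, was 17.7 ± 4.20 in NF-like, 17.2 ± 5.56 in NP3-like and 14.5 ± 2.63 in PEP-like neurons, and at most 2.00 in the others.

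Sdcbp was highest in TH-like neurons (2616 ± 267 CPM) and lowest in PEP-like neurons (861 ± 61.0). Cpne3 was high in NP3-like (1087 ± 120) and TH-like neurons (1031 ± 93.5), which overlapped, and lowest in PEP-like neurons (128 ± 17.3). Asph showed another order, highest in NP2-like neurons (172 ± 49.2), whose mice overlapped those of TH-like, NP1-like and NF-like neurons. It was lowest in NP3-like neurons (31.2 ± 12.5), the class with its largest genotype difference. Bach2, a transcriptional repressor, was highest in TH-like neurons (78.1 ± 13.6). Rab2a was nearly level, from 302.5 CPM in TH-like to 365.8 in NP2-like neurons.

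**Figure D5:**
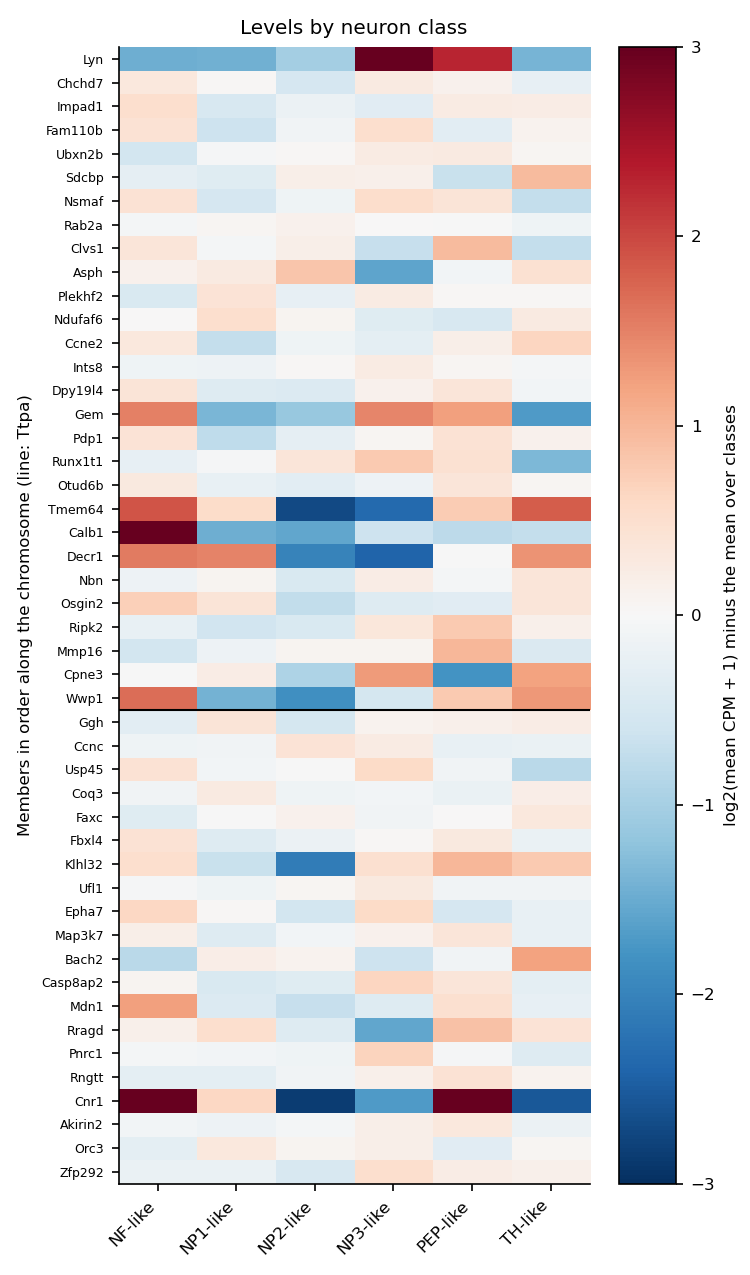
Level of 48 flanking genes with at least 200 UMIs (rows, in order along the chromosome, the line marking Ttpa) in the 6 neuron classes (columns), as log2 of the mean CPM plus 1 minus the row's mean over classes; colours are capped at 3 either way. Calb1, Lyn and Cnr1 reach the cap, and neighbouring rows mostly show different classes.

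Of the 115 other rows of the window, 2 genes passed the adjusted threshold for both diets against wild type, in classes only. Necab1, a neuronal calcium-binding protein 5.06 Mb before Ttpa, measured 37.6, 44.7, 47.5 and 42.6 CPM against 2.96 and 4.57 in NP3-like neurons (3.39 ± 0.35, adjusted p = 1.02e-05), and was also called in PEP-like and NP2-like neurons. Car8, a carbonic anhydrase-related protein 11.9 Mb before Ttpa, measured 0, 2.13, 46.2 and 0 CPM against 83.8 and 93.0 in NP3-like neurons (-4.36 ± 0.56, adjusted p = 0.000271), and was also called in PEP-like neurons. A count of 0 allows 2.13 and 2.97 CPM in mice 654 and 671. For Car8, supplemented mouse 670 lay between wild type and the other Ttpa-/- mice. Necab1 lies between Asph and Calb1 on the chromosome, and Car8 lies between Sdcbp and Asph. In all neurons the window held 90 tested genes, of which 0 were called and 6 had an unadjusted p under 0.05 (6.67%). Among the 6 were Car8 at -3.115 ± 0.554 (unadjusted p = 0.000129, adjusted p = 0.344) and Necab1 at 0.558 ± 0.124 (unadjusted p = 0.000791, adjusted p = 0.751). The test of all neurons thus left uncalled a difference as large as that of Car8.

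The sparse flanking genes and the listed genes outside the window complete the account. Gdf6, a growth factor of the BMP family, gave 5 UMIs over the 6 classes, and Rad54b, a recombination factor, gave 7. Ptdss1, a phosphatidylserine synthase, was above both wild type mice in all 4 Ttpa-/- mice (0.24 ± 0.12, unadjusted p = 0.0671), although it is on chromosome 13. Uqcrb, a complex III subunit also on chromosome 13, gave -0.13 ± 0.19. Trp53inp1, a row of the table that lies in the window, gave 0.04 ± 0.14.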

How the data were processed

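Single-cell UMI counts were taken as deposited by the authors, in 1 table of 27998 genes and 21685 cells whose names end in the number of the mouse. Per the submitters' processing notes the tools were Cell Ranger 2.0.1, bcl2fastq 2.17.1.14, Seurat 2.3.0 and limma 3.32.10 with mm10, and the authors' choice of cells is not stated there. A cell needed at least 500 genes and no more than 20% of its UMIs from mitochondrial genes, which kept 21658. Doublets were called with scrublet at 0.8% per 1000 cells and removed (634). Leiden clustering (scanpy 1.11.5, 2000 variable genes, 30 components, 15 neighbours, resolution 1) gave 28 clusters, named from marker lists. Genes of the first 45 Mb of chromosome 4, Xist, Y-linked and mitochondrial genes were kept out of the variable genes. The marker and role lists, the members and the named genes were chosen with earlier results of these data known.

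UMIs were summed per mouse over neurons and over each class. The quasi-likelihood F test of edgeR 4.0.16, with TMM scaling and filterByExpr, used all 6 mice in 1 model of the 3 group means, and its p-values were adjusted by Benjamini-Hochberg over all genes tested, with a threshold of 0.05. Each mouse was 1 replicate. The script was tested on simulated data. Flanking genes were named with full statistics if they passed the adjusted threshold, or an unadjusted p of 0.05 in all neurons for both diets against wild type or between the diets. Flanking genes described within classes beyond these, and those described by role, were chosen after their values were seen. Positions are those of GENCODE M21 (mm10) by symbol for 26604 rows, which include all flanking genes. Further rows were placed by a synonym or by RefSeq positions on the same assembly. In all, 27261 rows were placed and 737 were not. Whether counting used strand is not given, so reads of overlapping genes may not be told apart. Alternatives were another scaling (RLE), no low-count filter, DESeq2 1.42.0, limma-voom 3.58.1, sex as a term, Ttpa-/- as 1 group, doublets kept, UMIs thinned to the smallest mouse, all cells and each mouse left out. Leaving out TRPM8-like neurons and using the largest NP1-like cluster alone were alternatives chosen after seeing the data.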

Additional observations from a re-analysis of the deposited data

How the results depend on the processing

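In all neurons, 0 flanking genes were called for both diets against wild type under every alternative but that without a low-count filter, where 1, Calb1, was called (adjusted p = 4.06e-07), as was 1 for deficient and 1 for supplemented against wild type. That setting called 108 genes over the whole table. Over the 6 classes, both diets against wild type gave 4 calls without the filter, 1 with DESeq2 and 0 to 2 when a mouse was left out. Deficient against wild type gave 2 without the filter and 0 to 1 when a mouse was left out. Between the diets no alternative called a flanking gene. For all genes of the window in all neurons, both diets against wild type gave 3 calls without the filter, 1 with sex as a term (Car8, adjusted p = 0.0371) and 0 to 1 when a mouse was left out, and the diets gave 1 without the filter and 0 to 1 when a mouse was left out. Over the classes the 5 calls of window genes became 9 without the filter, 3 with DESeq2 and 3 to 5 when a mouse was left out (3 without mouse 670, 698 or 699). The cause was not tested. No value changed sign among the recomputed results of Calb1, Dpy19l4, Klhl32, Asph, Lyn, Cpne3, Sdcbp, Necab1 and Car8; other genes were not recomputed singly. Necab1 kept its call in NP3-like neurons in all 14 alternatives and lost it in 8 of 14 in NP2-like and in 5 of 14 in PEP-like neurons. Car8 lost it with DESeq2 in NP3-like neurons, and in PEP-like neurons with DESeq2, with Ttpa-/- as 1 group and without mouse 698. RLE scaling moved the median of all genes by under 0.1. No paired analysis was possible because the groups share no replicate number. Each group held 1 female and 1 male, and sex was fitted as a term instead. Leaving out the TRPM8-like neurons, chosen after seeing the data, left 0 flanking genes called in each contrast of all neurons. With 2 mice in a group, small differences of sparse genes such as Nkain3 and Fut9 were not detectable at this depth.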
